A study of Mus musculus with 12 samples.

Results

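The 10 genes described here belong to a mouse stress circuit of 3 families: Trp53, which encodes p53, with 4 genes known to be p53-responsive (Mdm2, Ccng1, Zmat3, Phlda3), the GADD45 genes (Gadd45a, Gadd45b, Gadd45g) and sestrins (Sesn1, Sesn2). They were found by gene symbol, and all 10 were present among the 26240 genes counted at 4 h and the 27020 counted at 24 h, or 29030 genes in either. Gene expression had been profiled by RNA sequencing. The cells of all 4 groups were primary cardiac fibroblasts of C57BL/6 mice, cultured with serum and antibiotics, 3 libraries a group: ethanol vehicle for 4 h, 6 µM MCB-613-10-1 for 4 h, ethanol vehicle for 24 h, and 6 µM MCB-613-10-1 for 24 h. MCB-613-10-1 is a derivative of MCB-613, a small-molecule stimulator of steroid receptor coactivators, and the study asked how it acts on these cells in the setting of fibrosis. The labels do not say whether the 3 libraries of a group came from separate cultures or animals, so each p-value measures the spread between these libraries, which may be technical.

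p53 is a transcription factor held at a low level by the ubiquitin ligase MDM2, whose own gene is a p53 target, so the pair forms a feedback loop. Much of the control of p53 is on the protein, which RNA sequencing does not measure. GADD45 proteins are small stress-induced proteins that bind the CDK1 and cyclin B complex, PCNA and the kinase MAP3K4 upstream of the stress-activated MAP kinases. Sestrins restrain the growth kinase complex mTORC1 through GATOR2, and SESN2 is known to sense leucine. Genes of the GADD45 and sestrin families are known to respond to p53 and also to other stress regulators, among them ATF4 and NF-kB.

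Total gene counts lay between 26869195 and 31596784 for the 4 h libraries and between 25016754 and 34877090 for those of 24 h. Within groups, pairs of libraries had a Pearson r of log2 CPM across genes of 0.986 to 0.992. Fewest reads fell on Sesn1, with 108 to 373 per library, and on Gadd45a, with 263 to 2282, whereas Ccng1 had 10289 to 20507. Levels below are CPM, read counts scaled to library size, with sizes adjusted by the trimmed mean of M-values over the 12 libraries. A gene is called where the edgeR quasi-likelihood test, adjusted over all genes tested, gave an adjusted p under 0.05, and log2 fold changes are given ± SE. All 10 genes passed the filter on low counts in every comparison. The 10 fibroblast markers were all at a mean of at least 1 FPKM in every group. Their summed FPKM was 2070 to 2690 in the other 3 groups and 1030 to 1060 after 24 h of compound. Macrophage and leukocyte markers, 8 genes, summed to 64.5 to 70.7 FPKM in 4 h vehicle, 42.7 to 57.5 in 4 h treated, 238 to 284 in 24 h vehicle and 93 to 110 in 24 h treated libraries, mostly Lyz2, while the leukocyte gene Ptprc averaged no more than 0.24 FPKM in any group. Pericyte and smooth muscle markers, 6 genes, summed to 7.21 to 11.6 FPKM in the other 3 groups and to 1.81 to 2.22 after 24 h of compound. Epicardial and mesothelial markers, 5 genes, summed to 18.8 to 22.2 FPKM in 4 h vehicle, 19.1 to 25.9 in 4 h treated, 6.96 to 7.61 in 24 h vehicle and 7.84 to 9.17 in 24 h treated libraries. Cardiomyocyte markers, 7 genes, summed to 1.66 to 3.11 FPKM in the other 3 groups and to 0.815 to 1.21 after 24 h of compound, mostly Tnnt2, while Myh6 averaged at most 0.00935 FPKM. Endothelial markers, 6 genes, summed to 7.09 to 7.75 FPKM in 4 h vehicle and 7.49 to 8.05 in 4 h treated libraries. At 24 h they summed to 7.34 to 9.22 FPKM in vehicle and 6.38 to 7.01 in treated libraries. By the 24 h test 2 of the 6 were higher and 4 lower. Schwann cell markers, 4 genes, summed to 0.215 to 1.13 FPKM over all libraries. Their 24 h sums were 0.94 to 1.13 FPKM in vehicle and 0.215 to 0.776 in treated libraries. The part of these marker differences in the results below was not tested. In bulk RNA, fewer cells of a type and less RNA per cell cannot be told apart.

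Whole-gene positions are those of the deposited tables on GRCm39, with the annotated strand. Trp53 (ENSMUSG00000059552) lies at chr11:69471185-69482699 on the plus strand, Mdm2 (ENSMUSG00000020184) at chr10:117524780-117546663 on the minus strand, Ccng1 (ENSMUSG00000020326) at chr11:40639379-40646138 on the minus strand, Zmat3 (ENSMUSG00000027663) at chr3:32388941-32420163 on the minus strand, and Phlda3 (ENSMUSG00000041801) at chr1:135693857-135696874 on the plus strand. The GADD45 genes are at separate loci, Gadd45a (ENSMUSG00000036390) at chr6:67012080-67014441 on the minus strand, Gadd45b (ENSMUSG00000015312) at chr10:80765907-80768038 on the plus strand and Gadd45g (ENSMUSG00000021453) at chr13:52000714-52002504 on the plus strand. Sesn1 (ENSMUSG00000038332) spans chr10:41685931-41784420 on the plus strand and Sesn2 (ENSMUSG00000028893) chr4:132219343-132237812 on the minus strand. Whether counting used strand is not given in the sources used here. The genes overlapping Trp53, Gadd45a, Sesn1 and Sesn2 were counted separately and had at most 24, 21, 11 and 20 reads per library.

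The promoters of 5 of these genes are shown because they cover the responses described below: Gadd45a, Sesn2 and Mdm2 rose at both times, Gadd45g passed the test at neither time, and Ccng1, a p53 target, fell at 24 h. Each line gives the 250 bases before a RefSeq start site, 5′ to 3′ in the gene's direction, on GRCm38.p6, which is not the build of the counts: Gadd45a at chr6:67037408-67037657, Sesn2 at chr4:132510457-132510706, Mdm2 at chr10:117710759-117711008 and Ccng1 at chr11:40755287-40755536, all on the minus strand, and Gadd45g at chr13:51846425-51846674 on the plus strand. Capitals mark matches, on either strand, to the consensus p53 half-site, CCAAT, TGACGTCA (the cAMP response element), TGATGCAA (a C/EBP-ATF composite), TGACNNNGC (the antioxidant response element core) or GAANNTTC (a heat shock element unit).
Gadd45a: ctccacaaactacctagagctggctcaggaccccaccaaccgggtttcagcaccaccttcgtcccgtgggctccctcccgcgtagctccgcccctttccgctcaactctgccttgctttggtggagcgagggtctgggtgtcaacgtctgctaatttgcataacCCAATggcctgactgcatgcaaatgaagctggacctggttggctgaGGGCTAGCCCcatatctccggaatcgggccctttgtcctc
Sesn2: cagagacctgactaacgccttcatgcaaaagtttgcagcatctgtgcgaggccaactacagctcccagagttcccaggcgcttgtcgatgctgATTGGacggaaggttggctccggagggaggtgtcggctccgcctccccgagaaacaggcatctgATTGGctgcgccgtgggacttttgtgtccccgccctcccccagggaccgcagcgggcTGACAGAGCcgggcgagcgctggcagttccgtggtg
Mdm2: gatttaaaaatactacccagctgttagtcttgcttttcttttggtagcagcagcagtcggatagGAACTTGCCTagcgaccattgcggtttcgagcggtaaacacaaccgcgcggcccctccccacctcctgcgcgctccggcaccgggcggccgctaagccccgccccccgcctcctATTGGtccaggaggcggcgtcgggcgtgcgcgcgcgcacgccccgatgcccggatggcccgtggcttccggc
Gadd45g: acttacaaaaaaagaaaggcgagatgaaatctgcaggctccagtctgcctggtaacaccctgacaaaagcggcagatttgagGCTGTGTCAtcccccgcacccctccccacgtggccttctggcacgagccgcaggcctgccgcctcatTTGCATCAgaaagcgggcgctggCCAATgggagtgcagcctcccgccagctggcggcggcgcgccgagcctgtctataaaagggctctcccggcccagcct
Ccng1: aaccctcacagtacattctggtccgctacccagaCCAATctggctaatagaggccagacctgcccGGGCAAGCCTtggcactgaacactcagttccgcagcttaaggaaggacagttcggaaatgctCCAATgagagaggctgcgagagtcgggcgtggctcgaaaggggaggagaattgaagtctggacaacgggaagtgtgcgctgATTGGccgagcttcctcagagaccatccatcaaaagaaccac

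RefSeq windows, each of 250 bases before and 50 after a start, were at hand for 9 of the 10 genes, in 10 windows of 32851 in the table. The p53 half-site consensus matched in 5 of the 10, against 8.36% of all windows. Its first base lay 40 bases before the start in Gadd45a, 75 in Trp53, 173 in 1 of the windows of Sesn1, 185 in Ccng1 and 186 in Mdm2. None held a close pair of half-sites, the full form of the element, which 0.0731% of all windows did. CCAAT was found in all of the 10 windows except that of Phlda3 (37.4% of all windows), TGACNNNGC in Trp53, Gadd45g and Sesn2 (12.4%), TGATGCAA in Gadd45g (0.895%) and GAANNTTC in the other window of Sesn1 (7.86%), while TGACGTCA was in none of the 10 (1.79%). GGGCGG, the GC box, which is not capitalised and can overlap the others, was found in windows of Gadd45a, Gadd45b, Mdm2, Phlda3, Sesn1 and Sesn2 (35.7%). Half-site letters were thus present both in genes that rose and in Ccng1, which fell at 24 h. These matches describe letters only, and known elements outside the windows, such as those in introns, were not searched.

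After 4 h, 3 of the 10 genes rose and none fell by the test: Gadd45a to 2.39 times, Sesn2 to 1.95 times and Mdm2 to 1.51 times the vehicle level. Over all 15336 genes tested, 3.45% were called higher and 3.71% lower, so that 48.2% of calls were higher, against 34.5% when scaled by library totals. No gene of the 10 was lower at an unadjusted p under 0.05 either, and DESeq2 also called 3 higher and 0 lower. After 24 h, 4 rose, Gadd45a, Sesn2, Gadd45b and Mdm2, and 4 fell, Sesn1, Ccng1, Phlda3 and Zmat3. That count stood against a background in which 36.7% of 15575 genes were called higher and 38% lower (49.1% of calls higher, and 39% when scaled by library totals), so calls in 8 of 10 genes at 24 h are close to the share over all genes. The sizes of the changes differed more than the counts. Among all genes tested at 24 h, the log2 fold change of Gadd45a stood at percentile 98.5, of Sesn2 at 96.0, of Gadd45b at 92.4 and of Mdm2 at 90.1, whereas the 4 falls lay between percentiles 29.9 and 43.0. The number of all genes called at 4 h, 1098, rested on single libraries: it was 1760 without vehicle replicate 1, 672 without vehicle replicate 3, and 634, 476 and 443 without treated replicates 1, 2 and 3, while 3 of the 10 genes were called higher and 0 lower each time.

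**Figure D1:**
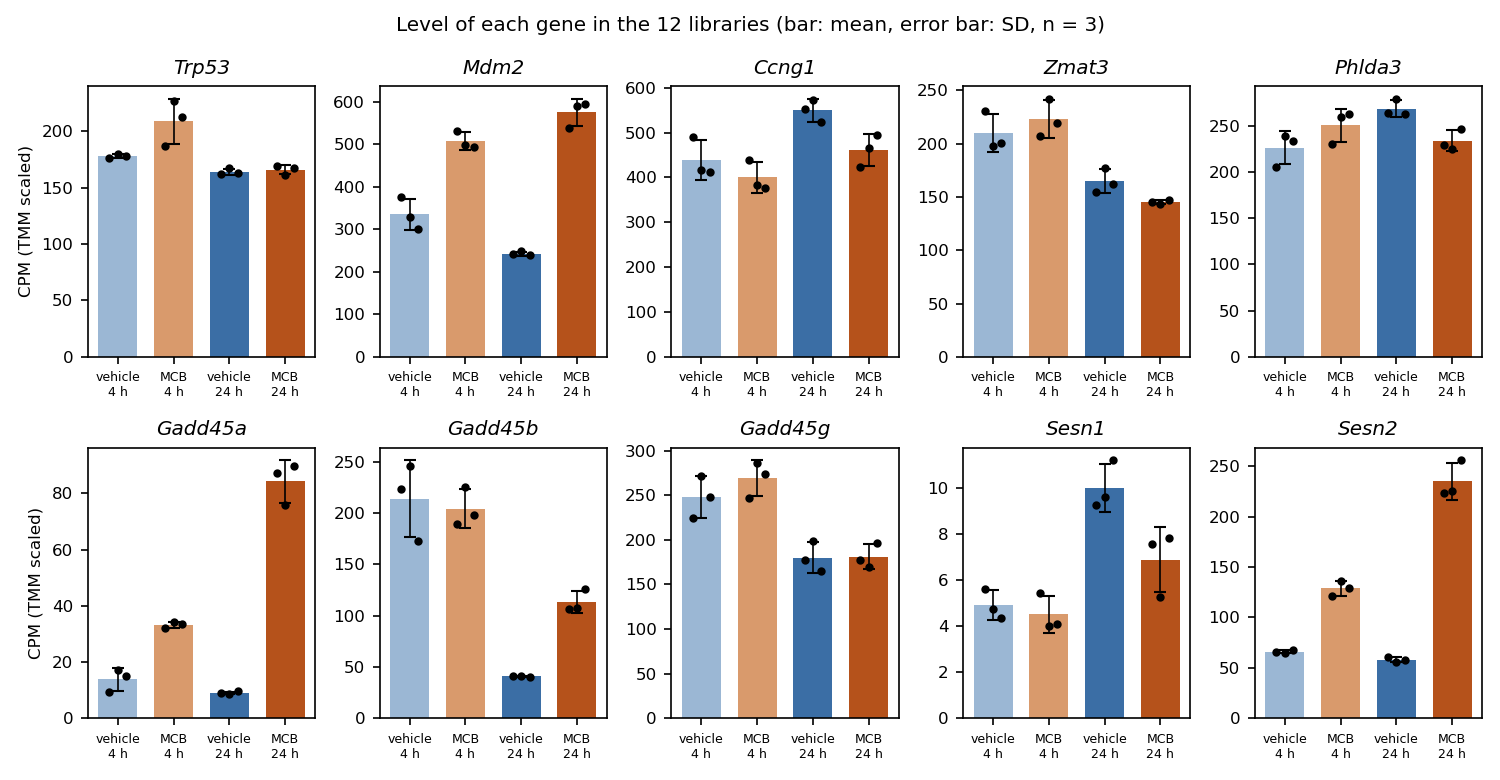
Level of each of the 10 genes in CPM (y axis, linear, starting at 0) in the 4 groups, where MCB stands for 6 µM MCB-613-10-1, bars are means of 3 libraries, error bars are SD and points are libraries. Gadd45a, Sesn2 and Mdm2 lay above vehicle at both times, while Gadd45b fell from 214 to 40.8 CPM in vehicle between the times.

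Trp53 itself passed the test at neither time. The vehicle libraries held 177, 179.5 and 178 CPM at 4 h and 162, 167 and 163 CPM at 24 h, and the treated libraries 187, 226 and 213 CPM at 4 h and 169, 161 and 168 CPM at 24 h. At 4 h all treated libraries were above all vehicle libraries, yet the difference did not pass the test over all genes (log2 fold change 0.23 ± 0.09, edgeR adjusted p = 0.149). It did pass, at edgeR adjusted p = 0.0334, when all 12 libraries shared the estimate of spread. At 24 h the groups overlapped, with a log2 fold change of 0.01 ± 0.04 (edgeR adjusted p = 0.849). Scaling by library totals, which shifted the median of all genes by -0.193 at 24 h, put Trp53 at -0.18 (edgeR adjusted p = 0.000894), a size close to that shift.

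Mdm2, which encodes the ligase that marks p53 for degradation, rose at both times. At 4 h it was at 375, 329 and 301 CPM in vehicle and 532, 497 and 493 CPM in treated libraries, a log2 fold change of 0.60 ± 0.09 (edgeR adjusted p = 0.00285). At 24 h it was at 241, 248 and 239 CPM in vehicle and 539, 591 and 596 CPM in treated libraries, a log2 fold change of 1.24 ± 0.05 (edgeR adjusted p = 1.35e-14). No treated library overlapped a vehicle library at either time. The reads of Mdm2 per read of Trp53 were 1.88 ± 0.222 in vehicle and 2.45 ± 0.344 in treated libraries at 4 h, and 1.48 ± 0.00887 and 3.47 ± 0.252 at 24 h (SD, n = 3). Mdm2 RNA thus rose relative to that of Trp53, a ratio that needs no scaling between libraries.

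The other 3 p53-responsive genes did not follow Mdm2. Ccng1 encodes cyclin G1, which acts with the phosphatase PP2A on MDM2. Its level was 491, 416 and 412 CPM in vehicle and 440.1, 383 and 377 CPM in treated libraries at 4 h, where the groups overlapped (log2 fold change -0.14 ± 0.10, edgeR adjusted p = 0.436). At 24 h it was 552, 574 and 523 CPM in vehicle and 424, 465 and 494 CPM in treated libraries, with every treated library the lower (log2 fold change -0.26 ± 0.05, edgeR adjusted p = 0.000247). Within a library, the reads of Mdm2 per read of Ccng1 were 0.762 ± 0.0295 and 1.27 ± 0.0545 in vehicle and treated cells at 4 h, and 0.442 ± 0.0131 and 1.25 ± 0.037 at 24 h (SD, n = 3). The treated value was about the same at both times while the vehicle value was lower at 24 h.

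Zmat3 encodes an RNA-binding zinc finger protein of the p53 response. At 4 h its vehicle libraries had 231, 198 and 201 CPM and its treated libraries 207, 242 and 219 CPM, which overlapped (log2 fold change 0.09 ± 0.09, edgeR adjusted p = 0.626). At 24 h the vehicle libraries had 155, 177 and 162 CPM and the treated ones 146, 144 and 147 CPM, all below vehicle (log2 fold change -0.18 ± 0.05, edgeR adjusted p = 0.00254). Phlda3 encodes a small protein that competes with the kinase AKT for membrane lipids. It was at 206, 239.5 and 234 CPM in vehicle and 230.3, 259 and 263 CPM in treated libraries at 4 h (log2 fold change 0.15 ± 0.09, edgeR adjusted p = 0.36). By 24 h it was at 264, 279 and 263 CPM in vehicle and 229.9, 225 and 246 CPM in treated libraries (log2 fold change -0.21 ± 0.05, edgeR adjusted p = 0.000584). The groups of Phlda3 overlapped at 4 h, and at 24 h every treated library was the lower. The falls of Ccng1, Phlda3 and Zmat3 at 24 h, to 0.836, 0.866 and 0.88 of vehicle, were small beside the rise of Mdm2. On the log2 scale they were near in size to the shift of -0.193 that library totals gave the median of all genes at 24 h. That shift is in the direction of larger falls.

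Gadd45a, the family's classic DNA damage gene, showed the largest rise of the 10 genes at both times. At 4 h it was at 9.35, 17.3 and 15.1 CPM in vehicle and 32.2, 34.2 and 33.4 CPM in treated libraries, a log2 fold change of 1.26 ± 0.18 (edgeR adjusted p = 0.00253). The vehicle libraries were spread widely, with replicate 1 the lowest, and the treated libraries were close together and all higher. After 24 h it was at 8.83, 8.67 and 9.57 CPM in vehicle and 87.1, 75.7 and 89.9 CPM in treated libraries, a 9.28-fold rise (log2 fold change 3.21 ± 0.08, edgeR adjusted p = 2.62e-17). Here the vehicle libraries differed little and the groups were far apart.

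Gadd45b, which is known for its induction by NF-kB and TGF-beta, answered at 24 h and in a different way. At 4 h the vehicle libraries had 224, 246 and 173 CPM and the treated ones 189.6, 226 and 198 CPM, which overlapped (log2 fold change -0.07 ± 0.12, edgeR adjusted p = 0.788). At 24 h the vehicle libraries had 41.0, 41.6 and 39.8 CPM and the treated ones 107, 108 and 126 CPM, a 2.77-fold difference (log2 fold change 1.47 ± 0.06, edgeR adjusted p = 6.49e-14). All treated libraries were above vehicle at 24 h, and all were below both groups of 4 h.

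Gadd45g did not pass the test at either time. It was at 224, 271 and 248 CPM in vehicle and 247, 287 and 273 CPM in treated libraries at 4 h (log2 fold change 0.12 ± 0.10, edgeR adjusted p = 0.489). At 24 h it was at 177, 198 and 165 CPM in vehicle and 177, 169.5 and 196 CPM in treated libraries (log2 fold change 0.0017 ± 0.07, edgeR adjusted p = 0.983). The groups overlapped at both times. Scaled by library totals it stood at -0.19 at 24 h (edgeR adjusted p = 0.0136), again a size close to the shift of the median of all genes. Counted per kb of exon, Gadd45a gave 2.22 ± 0.564% of the family's reads in vehicle and 5.01 ± 0.236% in treated cells at 4 h, and 2.79 ± 0.361% and 17.5 ± 0.868% at 24 h (SD, n = 3). Gadd45g stayed the main source, with 83.2 ± 1.16% of the family's reads in vehicle and 56.4 ± 0.169% in treated cells at 24 h. At 4 h Gadd45g gave 59.8 ± 3.95% in vehicle and 60.9 ± 0.889% in treated cells. Gadd45b gave 38.0 ± 4.39% and 34.1 ± 0.967% at 4 h, and 14.0 ± 0.814% and 26.1 ± 0.89% at 24 h. Against 24 h vehicle, the make-up in treated cells thus lay more toward Gadd45a and Gadd45b. The share of Gadd45b in 24 h treated cells was still below that in both groups of 4 h.

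The sestrins moved in opposite directions at 24 h. Sesn2, the stress-induced member, was at 65.5, 64.9 and 67.8 CPM in vehicle and 121, 136 and 129 CPM in treated libraries at 4 h (log2 fold change 0.96 ± 0.08, edgeR adjusted p = 3.66e-05). At 24 h it was at 60.8, 56.3 and 57.8 CPM in vehicle and 224, 226 and 256 CPM in treated libraries, 4.01 times vehicle (log2 fold change 2.003 ± 0.06, edgeR adjusted p = 1.79e-16). No library overlapped between the groups at either time, and in the fit at 4 h Sesn2 ranked 39 by p among all genes tested.

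Sesn1, a p53-responsive sestrin, was the least abundant of the 10 genes. At 4 h it was at 5.64, 4.78 and 4.38 CPM in vehicle and 5.45, 4.0 and 4.12 CPM in treated libraries, which overlapped (log2 fold change -0.13 ± 0.18, edgeR adjusted p = 0.717). By 24 h Sesn1 was at 9.26, 9.63 and 11.2 CPM in vehicle and 7.59, 5.28 and 7.84 CPM in treated libraries, which did not overlap (log2 fold change -0.56 ± 0.15, edgeR adjusted p = 0.00235). The reads of Sesn2 per read of Sesn1 were 13.6 ± 1.93 in vehicle and 29.2 ± 6.23 in treated cells at 4 h, and 5.86 ± 0.71 and 34.9 ± 6.95 at 24 h (SD, n = 3). Sesn3, the remaining sestrin and no member of the set, was at 33.9 ± 5.28 CPM in vehicle and 16.4 ± 1.35 CPM in treated cells at 24 h (log2 fold change -1.05, edgeR adjusted p = 8.36e-07). Of the 3 sestrins, Sesn2 alone was higher after 24 h of compound, and it gave 78.0 ± 2.12% of the family's reads per kb in vehicle and 96.0 ± 0.409% in treated cells.

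**Figure D2:**
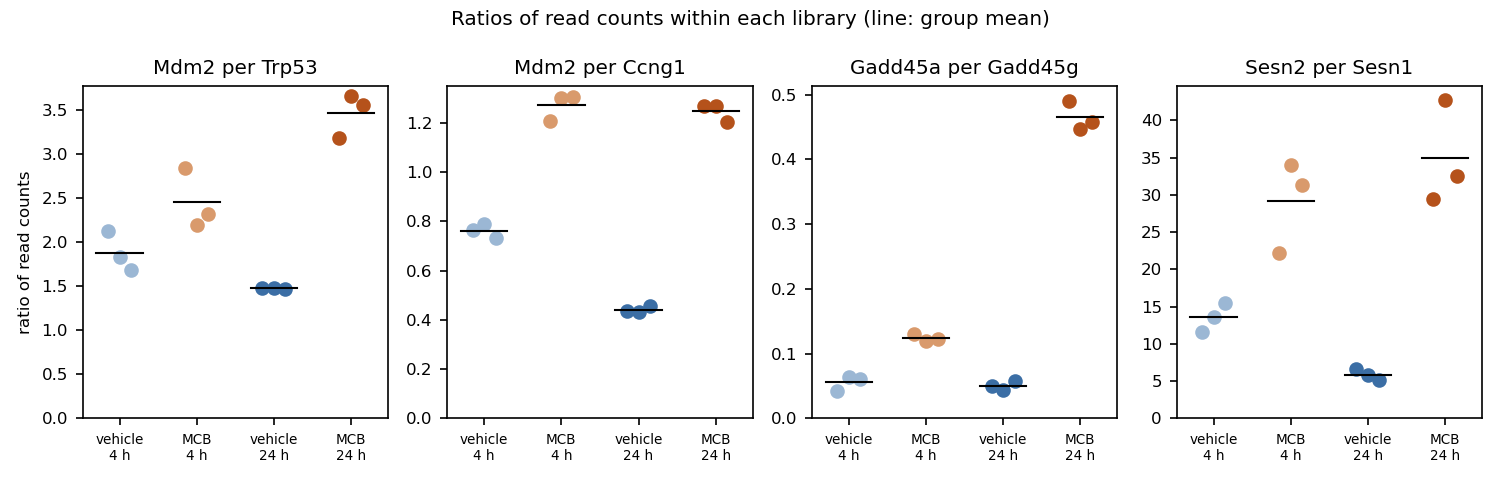
Ratios of raw read counts within each library (y axes, linear, starting at 0) in the 4 groups, where MCB stands for 6 µM MCB-613-10-1, points are libraries and lines are means of 3. Treated libraries lay above their vehicle libraries for all 4 ratios at both times, and Gadd45a per Gadd45g reached 0.465 at 24 h.

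The response at 24 h was set against that at 4 h by an interaction over all 12 libraries, which shares its libraries with both responses above. Over 16341 genes, 26.7% had a higher and 27.1% a lower log2 response at 24 h. Among the 10 genes the response was higher for 4, by 1.96 for Gadd45a (edgeR adjusted p = 3.8e-06), by 1.54 for Gadd45b (adjusted p = 2.99e-07), by 1.05 for Sesn2 (adjusted p = 8.11e-08) and by 0.65 for Mdm2 (adjusted p = 5.27e-05). It was lower for 2, Phlda3 with a difference of -0.35 (edgeR adjusted p = 0.00823) and Zmat3 with -0.26 (edgeR adjusted p = 0.0479). The call of Zmat3 was lost without vehicle replicate 2 or 3 of either time, treated replicate 2 or 3 of 4 h, or any 1 treated replicate of 24 h, with an edgeR adjusted p of up to 0.129. For Ccng1, Sesn1, Gadd45g and Trp53 the difference between the responses did not pass the test (edgeR adjusted p = 0.421, 0.154, 0.467 and 0.0738). The falls of Ccng1 and Sesn1 at 24 h are thus not shown to differ from their responses at 4 h. Without vehicle replicate 1 or treated replicate 1 of 4 h, the difference for Trp53 passed, at edgeR adjusted p = 0.0468 and 0.00966. It also passed with library totals, which shifted the median of all genes by -0.143 (edgeR adjusted p = 0.00337).

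**Figure D3:**
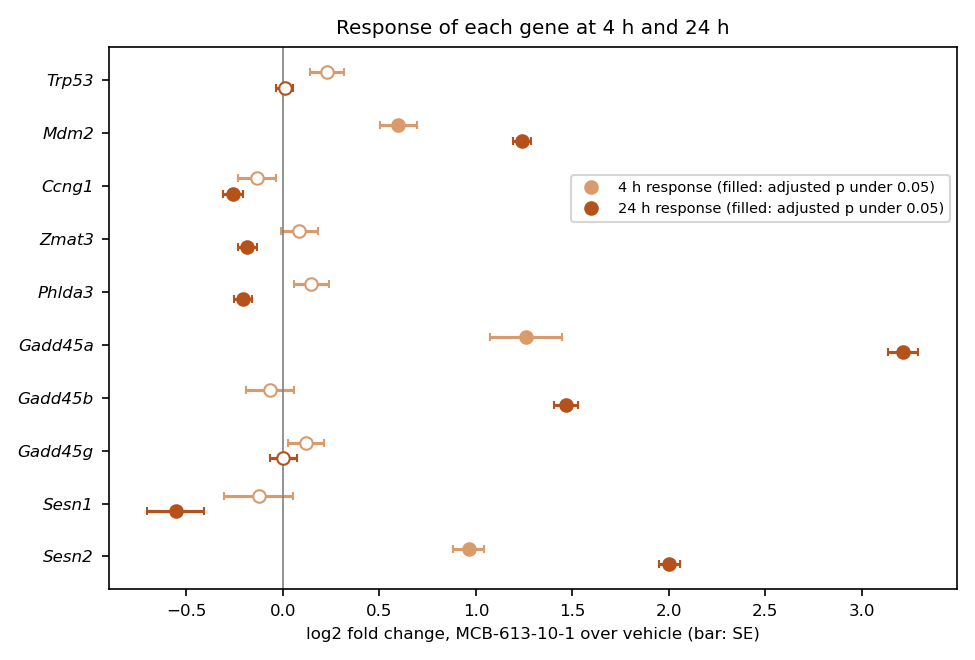
Log2 fold change of MCB-613-10-1 over vehicle (x axis, SE as bars) for each gene at 4 h and 24 h, with filled points for an edgeR adjusted p under 0.05. Gadd45a, Sesn2 and Mdm2 lay right of 0 at both times with larger values at 24 h, and Gadd45b did so at 24 h.

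The vehicle cells were themselves different at 24 h and 4 h, with all 8 macrophage and leukocyte markers called higher and 4 of 5 epicardial and mesothelial markers called lower at 24 h, whose part in the values below was not tested. The comparison shares its libraries with the responses above, and time cannot be told apart from any other difference between the 4 h and 24 h experiments. Between the vehicle groups 27.4% of genes were called higher and 27% lower at 24 h. Of the 10 genes, 3 were higher at 24 h, Sesn1 by 1.02 on the log2 scale, Ccng1 by 0.32 and Phlda3 by 0.25 (edgeR adjusted p = 5.29e-05, 0.00301 and 0.00815). Lower by the test were 6, and Gadd45b moved most, with a log2 difference of -2.39 (edgeR adjusted p = 8.61e-11), a 5.25-fold lower level. Gadd45a differed by -0.62, Mdm2 by -0.47, Gadd45g by -0.46, Zmat3 by -0.35 and Sesn2 by -0.18, with edgeR adjusted p up to 0.0402. The call of Sesn2 was lost without vehicle replicate 2 or 3 of either time, treated replicate 3 of 4 h or treated replicate 2 of 24 h, at edgeR adjusted p up to 0.131. Trp53 did not pass (log2 difference -0.12, edgeR adjusted p = 0.154).

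Between the treated groups, 30% of genes were called higher and 31.9% lower at 24 h than at 4 h. The level of Gadd45a was higher in 24 h than in 4 h treated cells, by 1.34 on the log2 scale (edgeR adjusted p = 2.13e-06), as was that of Sesn2, by 0.87 (edgeR adjusted p = 4.92e-09). Mdm2 was near its 4 h treated level, higher by 0.18 (edgeR adjusted p = 0.0453), a call that was lost without vehicle replicate 2 or treated replicate 2 or 3 of 4 h, without any 1 vehicle replicate or treated replicate 2 or 3 of 24 h, and with library totals, where it was 0.07 (edgeR adjusted p = 0.478). Of the difference of 0.65 between the responses of Mdm2, the larger portion lay in its vehicle level, which was 335 CPM at 4 h and 243 CPM at 24 h. Sesn1 and Ccng1 were also higher, by 0.60 and 0.21, the latter with edgeR adjusted p = 0.0389 and a loss of the call without treated replicate 2 or 3 of either time or vehicle replicate 1 of 24 h (edgeR adjusted p up to 0.164). Lower by the test were Gadd45b at -0.85, Zmat3 at -0.62, Gadd45g at -0.57 and Trp53 at -0.33 (edgeR adjusted p of at most 0.000382). Library totals shifted the median of all genes by -0.114 in this comparison. Phlda3 did not pass (edgeR adjusted p = 0.239).

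Per kb of exon, a scale on which genes can be compared, Gadd45g stood highest in 4 h vehicle cells at 211 ± 20.1 CPM per kb, followed by Phlda3, Gadd45b and Ccng1 at 145 ± 11.5, 135 ± 23.4 and 125 ± 12.7, whose neighbours in that order overlapped (SD, n = 3). Mdm2 at 65.9 ± 7.36 and Trp53 at 44.0 ± 0.362 CPM per kb came next, apart from each other, then Sesn2 and Zmat3, which overlapped at 19.0 ± 0.434 and 18.4 ± 1.59. Gadd45a at 7.9 ± 2.34 and Sesn1 at 1.24 ± 0.162 CPM per kb came last. After 4 h of compound the order was the same, with Zmat3 and Gadd45a now overlapping at 19.5 ± 1.56 and 18.9 ± 0.552 CPM per kb. In 24 h vehicle cells Phlda3 led at 172 ± 5.86 CPM per kb, before Ccng1 and Gadd45g, which overlapped, and Gadd45b at 25.7 ± 0.576 had dropped below Trp53. After 24 h of compound Gadd45a at 47.8 ± 4.25 CPM per kb had passed Trp53 at 41.0 ± 1.02, and Sesn2 at 67.6 ± 5.18 overlapped Gadd45b at 71.5 ± 6.79. Gadd45a thus moved from the ninth place to the seventh, and Sesn1 was last in all 4 groups.

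Likeness of pattern was measured as the root mean square difference of log2 CPM, each gene centred on its own mean, over the 12 libraries and 12230 genes, which share library, scaling and treatment. Among the 10 genes themselves, the closest pairs were Zmat3 and Gadd45g at 0.137 and Trp53 and Zmat3 at 0.168. Sesn1 and Gadd45a were farthest apart at 1.47. Genes that vary little lie close by this measure whatever their pattern, since a flat gene lies at the other gene's own SD. That SD was 0.149 for Trp53, 0.262 for Zmat3, 0.28 for Gadd45g, 0.5 for Mdm2, 0.807 for Sesn2 and 1.25 for Gadd45a. The 0.168 of Trp53 and Zmat3 was above the SD of Trp53, and so does not show a shared pattern. Mdm2 was nearest to Sesn2 at 0.398, closer than to Ccng1 at 0.626, and Gadd45a was nearest to Sesn2 at 0.485 rather than to the other GADD45 genes at 1.29 and 1.3. Over all genes, Gadd45a was most like Trib3, a pseudokinase, at 0.164, Gdf15, a secreted cytokine, at 0.211, and Prkar1b at 0.242. Sesn2 was most like Ccdc117, Zfand5 and Slc3a2, the last the heavy chain of amino acid transporters, at 0.0802, 0.138 and 0.14. Mdm2 was most like Fnip2, Prdm2 and Nav3, from 0.101 to 0.106, and Gadd45b most like Tcf7, Cish and Wnt2, from 0.169 to 0.233. For Sesn1 these were Gm15640, Hsdl2 and Hmgn5, from 0.14 to 0.163. The genes that varied little had close neighbours of similar pattern: Galnt10, Sidt2 and Mapkapk2 for Trp53, Dstn and Rbbp7 among those for Ccng1, Zcchc14, Nbea and Rps6ka2 for Zmat3, Gna11, Clip2 and Aph1a for Phlda3, and Dzip1l, Zfp777 and Timp1 for Gadd45g, at 0.0439 to 0.0864.

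Other p53 targets, a list of 33 genes without the 10 of which 32 could be tested, were mixed. At 4 h 4 rose and 1 fell, with a median log2 fold change of 0.01, against -0.01 over all genes. Over all genes tested at 4 h, 3.45% were called higher and 3.71% lower. Pmaip1, which encodes the pro-apoptotic NOXA, was at 20.2 ± 2.48 CPM in vehicle and 31.9 ± 0.833 in treated cells (log2 fold change 0.66, edgeR adjusted p = 0.00444). Plk3, a stress kinase, rose by 0.55 and Ckap2, a spindle protein, had a log2 fold change of -0.53 (edgeR adjusted p = 0.017 and 0.0147). The others that rose, named after their values were seen, were the cell cycle inhibitor Cdkn1a at 0.44 and the kinase Plk2 at 0.32 (edgeR adjusted p = 0.00842 and 0.032). These calls, other than that of Pmaip1, rested on single libraries: Plk3 was lost without vehicle replicate 3 or treated replicate 2 or 3, Ckap2 without vehicle replicate 3 or treated replicate 1 or 2, Cdkn1a without treated replicate 3, and Plk2 without vehicle replicate 3 or any 1 treated replicate, so that the list counted from 1 to 7 higher and from 0 to 1 lower. It was 7 higher without vehicle replicate 1.

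At 24 h, 16 of the 32 p53 targets rose and 15 fell, with a median of 0.13 against -0.02 over all genes, where 36.7% of all genes were called higher and 38% lower. Pmaip1 was at 13.6 ± 0.888 CPM in vehicle and 49.0 ± 3.32 CPM in treated cells, a log2 fold change of 1.85, and Plk3 rose by 1.41. Also higher, and named after their values were seen, were Bbc3, which encodes PUMA, by 1.18, the antiproliferative Btg2 by 1.16, Cdkn1a by 0.91 and Bax by 0.33. Vehicle levels of Btg2, Cdkn1a, Pmaip1 and Plk3 were lower at 24 h than at 4 h (edgeR adjusted p of at most 0.00214). Their log2 differences were -1.19, -0.61, -0.58 and -0.40, and Bbc3 and Bax did not pass. Btg2 was at 88.1 ± 9.18 CPM in 4 h vehicle and 86.9 ± 0.529 CPM in 24 h treated cells. Cdkn1a was at 894 ± 50.15 CPM in 4 h treated and 819 ± 46.2 CPM in 24 h treated cells. The lowest responses at 24 h were those of Ckap2 and Gtse1, proteins of the spindle and of G2 phase, at -2.89 and -1.85. Ckap2 was at 86.3 ± 2.88 CPM in vehicle and 11.7 ± 1.37 CPM in treated cells. Vehicle levels of Ckap2 and Gtse1 were themselves higher at 24 h than at 4 h, by 1.81 and 1.155 (edgeR adjusted p = 5.41e-11 and 2.15e-09). Ckap2 was at 24.6 ± 1.4 CPM in 4 h vehicle. Pml, which organises nuclear bodies, at -1.83, Pidd1, a death domain protein, at -1.62, and the death receptor Fas at -1.57, all named after their values were seen, also fell. The edgeR adjusted p of each of these 24 h responses was at most 3.68e-06. Vehicle levels of Pml and Pidd1 were higher at 24 h than at 4 h, by 1.15 and 0.71 (edgeR adjusted p = 2.85e-08 and 0.000435), while that of Fas did not pass.

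Regulators of p53, 24 tested of 26, gave 0 calls at 4 h by edgeR, against 3.45% of all genes higher and 3.71% lower. At an unadjusted p under 0.05, 2 of these regulators were higher and 1 lower, and DESeq2 called 2 higher and 0 lower. Without vehicle replicate 1, edgeR called 2 higher. At 24 h 15 rose and 6 fell, with a median of 0.37 against -0.02 over all genes, where 36.7% of all genes were called higher and 38% lower. The deacetylase Sirt1 rose most, by 1.48, from 24.1 ± 1.12 to 67.5 ± 2.27 CPM, followed by Mdm4, the MDM2 partner, by 0.96. The DNA damage kinases Atm and Atr were the lowest, at -1.83 and -1.36, with Atm at 37.2 ± 1.29 CPM in vehicle and 10.4 ± 0.892 CPM in treated cells. All of these 24 h responses had an edgeR adjusted p of at most 5.92e-11. Vehicle levels of Sirt1, Mdm4 and Atr were lower at 24 h than at 4 h, while that of Atm did not pass. The log2 differences were -1.09, -0.49 and -0.50 (edgeR adjusted p = 4.48e-08, 4.68e-05 and 0.00046). Sirt1 was at 51.4 ± 7.65 CPM in 4 h vehicle. Against 24 h vehicle, Mdm2 and Mdm4 thus both rose while the RNA of Atm and Atr fell.

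The partners of GADD45 proteins and the stress MAP kinases, 18 genes, gave 2 calls lower and 0 higher at 4 h by edgeR. Over all genes the shares were 3.45% higher and 3.71% lower. None of the 18 was higher at an unadjusted p under 0.05 or by DESeq2. Without vehicle replicate 1 the counts were 3 lower and 1 higher. The mitotic cyclin Ccnb1 was at 42.6 ± 5.33 CPM in vehicle and 22.9 ± 2.62 CPM in treated cells at 4 h (log2 fold change -0.89, edgeR adjusted p = 0.00112), and its kinase Cdk1 at -0.61 (edgeR adjusted p = 0.00738, and 0.0521 without treated replicate 2). At 24 h 7 of the 18 rose and 8 fell, with a median of -0.02 against -0.02 over all genes, where 36.7% were called higher and 38% lower. Ccnb1 was then at 108 ± 2.87 CPM in vehicle and 10.7 ± 1.24 CPM in treated cells, and Cdk1 at 118 ± 4.14 and 14.3 ± 2.18 CPM (log2 fold changes -3.34 and -3.05, edgeR adjusted p = 6.2e-18 and 6.44e-14). Their vehicle levels were themselves higher at 24 h than at 4 h, by 1.34 and 1.33 (edgeR adjusted p = 4.86e-09 and 7.03e-09). Map2k3 and Map2k4, kinases that activate stress MAP kinases, rose by 1.29 and 0.74 (edgeR adjusted p = 6.57e-15 and 6.91e-11), while Mapk14, named after its value was seen, was at -1.06 (edgeR adjusted p = 1.87e-12).

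Of 36 genes of the sestrin, GATOR and mTORC1 pathway, 5 rose and 0 fell at 4 h by edgeR. Among all genes tested, 3.45% were called higher and 3.71% lower. Of the 36, 3 were lower at an unadjusted p under 0.05, and DESeq2 called 0 lower. The mTORC1 inhibitor Ddit4 was at 30.1 ± 6.34 CPM in vehicle and 69.2 ± 1.03 in treated cells (log2 fold change 1.20, edgeR adjusted p = 0.000325) and the autophagy receptor Sqstm1 at 2136 ± 238 CPM and 4001 ± 20.4 CPM (log2 fold change 0.91, edgeR adjusted p = 0.000123). The other 3 that rose, Ulk1, Prkab2 and Keap1, named after their values were seen, lay between 0.41 and 0.43, and each lost its call without treated replicate 2 or 3, Ulk1 and Keap1 also without vehicle replicate 3, and Prkab2 also without vehicle replicate 2 or treated replicate 1, so that the list counted from 2 to 7 higher, with 7 without vehicle replicate 1. At 24 h 18 rose and 14 fell, with a median of 0.21 against -0.02 over all genes, where 36.7% of all genes were called higher and 38% lower. Sqstm1 reached 10380 ± 771 CPM against 1184 ± 62.8 in vehicle (log2 fold change 3.13, edgeR adjusted p = 1.5e-18), and Rragc, a Rag GTPase that brings mTORC1 to lysosomes, rose by 1.54 (edgeR adjusted p = 1.1e-15). Both the arginine sensor Castor1, at -1.43 (edgeR adjusted p = 2.5e-11), and Sesn3 were among the lowest. Ddit4 was at 0.80 at 24 h (edgeR adjusted p = 0.0207), and was lost without vehicle replicate 1 or treated replicate 3. Activators and inhibitors of mTORC1 were both among the genes that rose at 24 h, namely Rheb by 1.24 and Tsc1 by 1.15, named after their values were seen (edgeR adjusted p = 1.41e-14 and 1.08e-13). Among those that fell were the inhibitors Tsc2, Tbc1d7 and Deptor and the kinase Mtor, also named after their values were seen. They were at -0.39, -0.75, -0.65 and -0.29 (edgeR adjusted p of at most 0.000415).

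**Figure D4:**
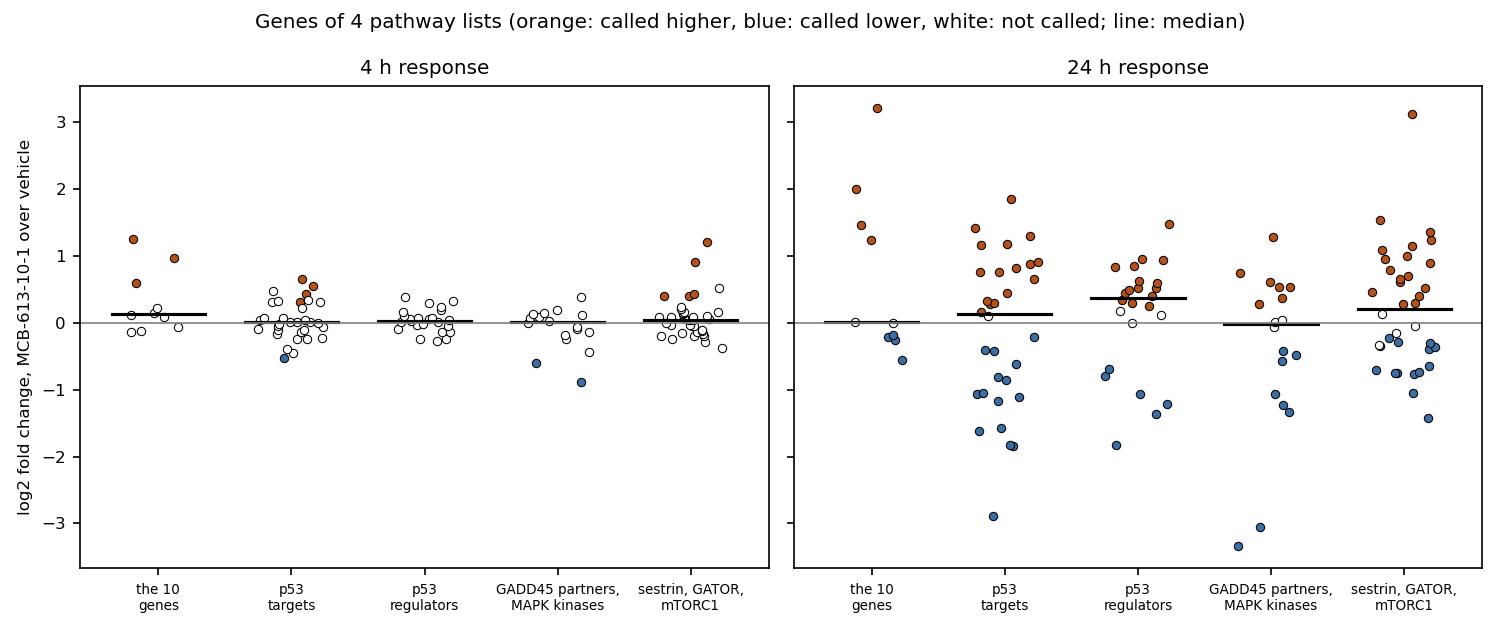
Log2 fold change of MCB-613-10-1 over vehicle (y axis) at 4 h and 24 h for the 10 genes and the genes of the 4 lists, with orange points called higher, blue points called lower and white points not called at an edgeR adjusted p under 0.05, and lines at the medians. At 4 h most points were white and near 0, and at 24 h each list held genes called in both directions.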

How the data were processed

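RNA levels were measured in 12 libraries, 3 in each of 4 groups. The deposited tables hold raw read counts per gene, per the file headers. The authors also gave a signal, counts divided by a size factor per library, the FPKM, a log2 fold change and a p-value for each gene. HISAT2 2.0.5, featureCounts 1.5.0-p3, DESeq2, DESeq and the build GRCm39 are named in the submitters' processing notes, and their settings are not given in the sources used here. Responses were tested on the counts with edgeR 4.0.16 in R 4.3.3 (filterByExpr, TMM scaling, robust quasi-likelihood fit, Benjamini-Hochberg adjustment over all genes tested), per time on 6 libraries, and the comparisons between times on all 12, with a gene absent from a table set to 0 there. DESeq2 1.42.0, limma 3.58.1 on log2(FPKM + 1), other scalings, no filter, a replicate block and leaving out each library were alternatives. The fits were tested on simulated data in which few genes changed, as many up as down. Scaling where most genes change, as at 24 h, was not tested that way. Likeness of pattern used a prior count of 2 and genes with a mean FPKM of at least 1, and 1 gene of that ranking is not reported here.

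The genes and lists were chosen with earlier results of these data known. All 10 genes are named. From each list the called genes that moved furthest, 2 up and 2 down per time, are named, and others are said to have been chosen after their values were seen. FPKM tables of the times were normalised separately, so FPKM levels set across times carry that limit, and CPM levels were scaled over all 12 libraries. The names of the 24 h group means have an unexplained prefix, not seen in the 4 h table. RefSeq promoter windows on GRCm38.p6 were matched by symbol.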

Additional observations from a re-analysis of the deposited data

Results flagged for a closer look

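For 6 of the 10 genes the response to MCB-613-10-1 differed between the times by the test of the difference itself. The log2 response at 24 h minus that at 4 h was 1.96 for Gadd45a, 1.54 for Gadd45b, 1.05 for Sesn2 and 0.65 for Mdm2, and -0.35 for Phlda3 and -0.26 for Zmat3 (edgeR adjusted p = 3.8e-06, 2.99e-07, 8.11e-08, 5.27e-05, 0.00823 and 0.0479). The call of Zmat3 was lost under DESeq2, DESeq2 size factors in edgeR, limma-trend, the replicate block and without any 1 of several libraries. Beside these stand 26.7% of all genes with a higher and 27.1% with a lower response at 24 h. Calls in 6 of 10 genes are thus close to the share over all genes. Gadd45b was lower at 24 h than at 4 h in both groups. Its log2 differences were -2.39 in vehicle and -0.85 in treated cells.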

How the results depend on the processing

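Counts of 3 members higher and 0 lower at 4 h came out under every alternative run except the fit of all 12 libraries, with 4 higher. Counts of 4 higher and 4 lower at 24 h came out under each except library totals, with 6 lower. All genes called at 4 h numbered 1098, 1953 with the replicate block, 2198 with all 12 libraries in the fit and 443 to 1760 without 1 library. Members with a lower response at 24 h than at 4 h numbered 2, 1 under DESeq2, DESeq2 size factors in edgeR, limma-trend and the replicate block, 3 with library totals, and 1 to 3 without 1 library. Treated members higher at 24 h than at 4 h numbered 5, 3 with library totals and 3 to 5 without 1 library. With library totals Phlda3 also became lower between the treated groups (-0.22, edgeR adjusted p = 0.0117). Values that were not called in the main fit changed sign for Gadd45b at 4 h (-0.1991 to 0.043 without 1 library), Trp53 at 24 h (-0.1841 with library totals, -0.01595 with no filter, -0.00703 to 0.03 without 1 library) and Gadd45g at 24 h (-0.1931, -0.02411, -0.00339 with limma-trend, and -0.06291 to 0.06327 without 1 library). With library totals, the values of Trp53 and Gadd45g at 24 h were called lower. Deviations from group means of same-numbered vehicle and treated libraries correlated with r of 0.0728, 0.06 and 0.0899 at 4 h and of 0.0221, 0.0144 and -0.0305 at 24 h. At 4 h these values exceeded every r between differently numbered libraries, which ran from -0.0882 to 0.0192. At 24 h they did not, with an r of up to 0.0598 between differently numbered libraries. Under the replicate block the difference for Zmat3 had edgeR adjusted p = 0.0564, the only call of a member that it changed, and at 4 h each vehicle library correlated best with its own number. The cause of these shifts was not tested. Sesn2 in vehicle between times was lost with library totals and no filter (edgeR adjusted p = 0.0693 and 0.0787). Over single members and comparisons, 726 alternatives kept direction and call, 37 kept direction and lost a call, and 5 kept direction and gained one. The other 12 changed sign, whatever their call. The limma fit was not run between times within vehicle or treated cells, since FPKM was normalised per time. Sesn1 and Gadd45a had the fewest reads, so small differences in them were hardest to detect.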
